A study of Rattus norvegicus with 4 samples.

Results

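Lrrk2, Pink1, Park7, Vps35, Atp13a2 and Uchl1 are 6 genes linked to Parkinson disease in people, and their transcripts were counted here in single nuclei of the adult rat ventral tegmental area, a midbrain region rich in dopamine neurons. The 6 genes were taken by symbol, and all 6 of them were found among the 32883 genes counted. The tissue came from experimentally naïve Sprague-Dawley rats of both sexes, aged 90 to 120 days, with no transgene or drug named in the labels. It was microdissected, frozen and lysed, and the nuclei were stained with 7-aminoactinomycin D, sorted and sequenced with 10x Genomics 3′ chemistry. The 4 libraries, female 1, female 2, male 1 and male 2, each pooled tissue from 3 animals of the same sex, so the library is the replicate and differences between single animals cannot be seen.

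All of these genes encode proteins of quality control inside the cell. LRRK2 is a large protein kinase that phosphorylates Rab GTPases on membranes, and VPS35 is a core subunit of retromer, the coat that returns cargo from endosomes. ATP13A2 is a lysosomal ATPase that exports polyamines, PINK1 is a kinase that marks damaged mitochondria for removal, DJ-1 (the product of Park7) protects against oxidative stress, and UCHL1 is a ubiquitin hydrolase abundant in neurons. Dopamine neurons of the midbrain are lost in Parkinson disease, those of the substantia nigra more than those of the ventral tegmental area.

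Library totals were 19714338 to 25824289 UMIs (unique molecular identifiers, each standing for a captured transcript molecule), and 20620 of 21606 barcodes were kept, 3523 to 6564 per library. Library pairs shared 4 to 9 barcodes, at most 0.248% of the smaller library. In male 1, 22.6% of kept nuclei fell into a neuron gate, against 12.6% to 13.4% in the other libraries.

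Nuclei were sorted into 8 gates by their own raw UMIs. Dopamine nuclei had at least 2 UMIs of Th and of Slc6a3 (289 nuclei, 62 to 81 per library). Nuclei with at least 2 UMIs of Slc26a7 and of Gad2 formed a small gate (82 nuclei, 10 to 28 per library). GABA nuclei had at least 2 UMIs of Gad1 (1132), and glutamate nuclei at least 2 of Slc17a6 and 0 of Gad1 (1528). Glia were taken by paired genes: Mog and Mobp for oligodendrocytes (8512), Gja1 and Aqp4 for astrocytes (1851), Csf1r and C1qa for microglia (926), and by at least 2 UMIs of Pdgfra for oligodendrocyte precursors (1334). A further 4813 nuclei (23.3%) fell into no gate and 153 passed gates of different types and were left out. Among the 153 were 17 that passed both the dopamine and the Slc26a7 gate, so neither gate holds nuclei that met both rules. The median depth was 7504 to 8888 UMIs per nucleus in the neuron gates and 1357 to 3310 in the glial gates.

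The gates were checked with markers that did not define the gate they were listed for. Of 12 dopamine markers 10 were highest in the dopamine gate, and all 8 oligodendrocyte, 7 precursor, 8 astrocyte and 8 microglia markers were highest in their own gates. Of 6 markers each, 1 for GABA, 2 for glutamate and 1 for the Slc26a7 gate were highest in their own gates. The 2 for glutamate were Sim1, with 46.0 CPM there, and Pou4f1, with 0.12 CPM there and 0 in the other gates. Otx2, on the GABA list, had 0 CPM in every gate. Some listed markers define another gate: Gad2 is on the GABA list, and Th, Slc6a3 and Slc17a6 are on the Slc26a7 list. Where these were highest was partly set by the gating. The GABA gate had 258 CPM of Slc32a1, the vesicular GABA transporter, against 14.1 in the glutamate gate. The summed UMIs of the Slc26a7 gate included Slc32a1 (269 CPM), Slc17a6 (178 CPM) and Th (123 CPM), so it is called by its 2 gating genes. How many single nuclei held these transcripts together was not counted. CPM here means UMIs of a gene per 1000000 UMIs of all genes summed over the nuclei of a gate in 1 library. It is a share of the RNA counted and not an amount per nucleus.

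UCHL1 and ATP13A2 transcripts were the neuronal members of the group. Uchl1 (ENSRNOG00000002343) had 420, 349, 511 and 400 CPM in the dopamine nuclei of female 1, female 2, male 1 and male 2. In oligodendrocytes the same libraries gave 65.3, 36.0, 67.5 and 53.4 CPM. The neuron and glial values did not overlap in any library. The mean over libraries was 387 to 452 CPM in the 4 neuron gates and 48.9 to 71.9 CPM in the 4 glial gates, and within each set neighbouring gates overlapped. Averaged over the 4 neuron gates on the log2 scale, Uchl1 was 6.07-fold higher than over the 4 glial gates (log2 fold change 2.60 ± 0.06 SE, adjusted p = 1.2e-37, higher in 4 of 4 libraries).

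Atp13a2 (ENSRNOG00000008052) had 184, 146, 129 and 160 CPM in dopamine nuclei of female 1, female 2, male 1 and male 2, and 26.7, 21.3, 27.8 and 23.3 CPM in oligodendrocytes. The lowest neuron value of any library and gate lay above the highest glial value. Means were 155 to 187 CPM in the neuron gates, 60.6 ± 4.2 CPM (SD, n = 4) in precursors, 41.7 ± 11.8 in microglia, 34.6 ± 4.6 in astrocytes and 24.8 ± 3.0 in oligodendrocytes. Neurons exceeded glia 3.84-fold (log2 fold change 1.94 ± 0.07 SE, adjusted p = 1.9e-28, higher in 4 of 4 libraries). Within glia, precursors stood above the mean of the other 3 gates by 0.75 ± 0.12 (adjusted p = 9.9e-07) and oligodendrocytes below it by a log2 change of -0.68 ± 0.11 (adjusted p = 4.3e-07).

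The glial UMIs of both genes were set beside those of pan-neuronal markers, because RNA released from lysed neurons can enter any droplet. Uchl1 in glia was 11.7% to 17.3% of its mean over the neuron gates. Stmn2, a tubulin-binding protein of neurons, was at 5.56% to 8.61%, and Syt1, the calcium sensor of synaptic vesicles, at 1.05% to 1.55% in oligodendrocytes, astrocytes and microglia but 13.3% in precursors. Snap25, a synaptic fusion protein, was at 36.0% in precursors and 4.85% to 7.32% in the other glia. Rbfox3, with a mean of 16.3 CPM over the neuron gates, was at 34.3% in precursors and 3.74% to 9.36% in the other glia. Atp13a2 was at 34.4% in precursors and 14.1% to 23.7% in the other glia. What share of the glial UMIs of either gene came from free RNA was not tested.

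**Figure D1:**
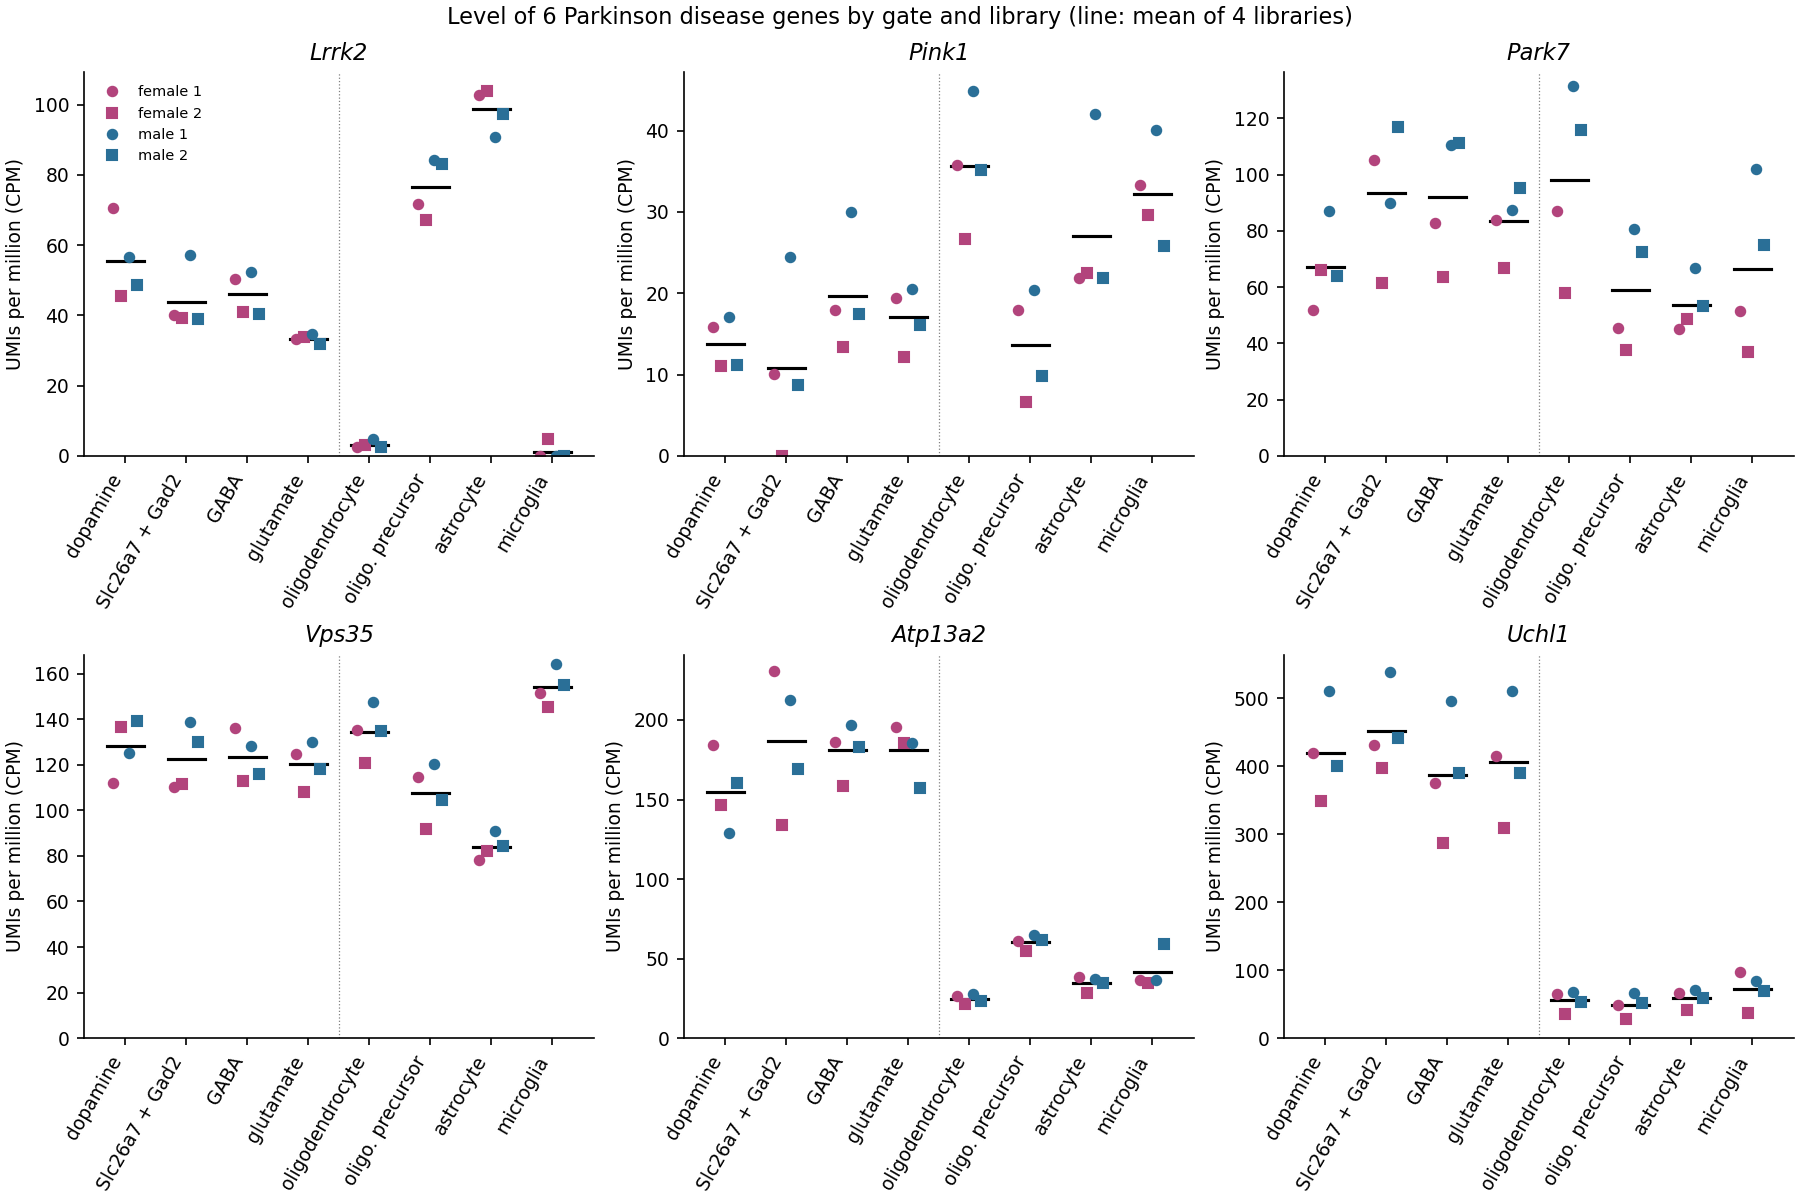
Each point is 1 library (circles, replicate 1; squares, replicate 2; pink, female; blue, male) and the line is the mean of 4 libraries; the vertical axes give CPM from 0 on a scale of their own for each gene. Uchl1 and Atp13a2 are higher in the 4 neuron gates left of the dotted line than in the glial gates, while Lrrk2 is highest in astrocytes and near 0 in oligodendrocytes and microglia.

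After each nucleus was thinned to 2000 UMIs, so that depth was equal, 51.3% to 55.9% of nuclei in the neuron gates held a UMI of Uchl1, against 7.79% to 10.7% in the glial gates. For Atp13a2 the shares were 26.5% to 31.1% in neurons and 4.40% to 10.8% in glia. Thinning left out 749 of 926 microglia and 3065 of 8512 oligodendrocytes, which were shallower. Without thinning, 92.3% of dopamine nuclei and 12.5% of oligodendrocytes held a Uchl1 UMI.

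**Figure D2:**
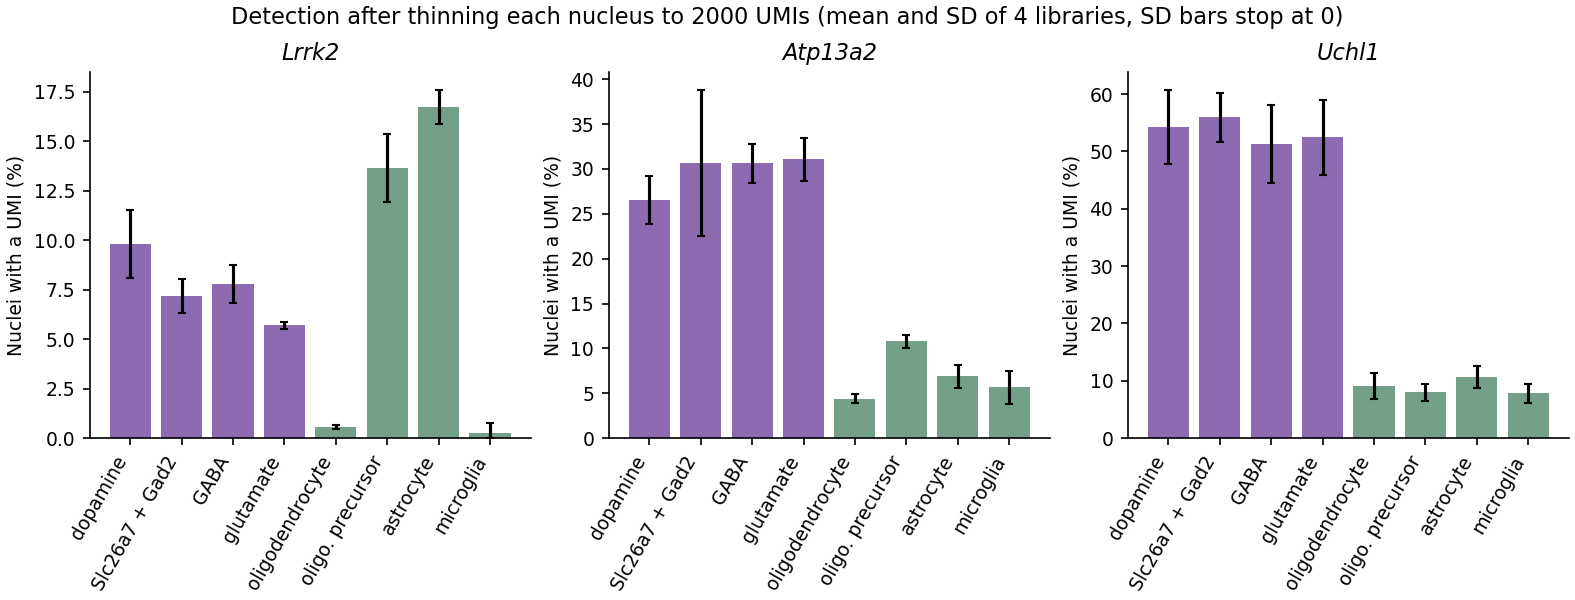
Bars give the percent of nuclei with at least 1 UMI after thinning each nucleus to 2000 UMIs, as the mean of 4 libraries, and error bars the SD, stopped at 0 (violet, neuron gates; green, glial gates). Lrrk2 was detected in 16.7% of astrocytes and 9.79% of dopamine nuclei, and Uchl1 in 51.3% to 55.9% of nuclei of each neuron gate.

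Lrrk2 (ENSRNOG00000004048) did not follow the division into neurons and glia. Astrocytes had the highest level, with 103, 104, 90.8 and 97.4 CPM in female 1, female 2, male 1 and male 2. Precursors followed with 71.6, 67.1, 84.2 and 83.1 CPM. Dopamine nuclei had 70.5, 45.5, 56.7 and 48.8 CPM, with female 1 above the rest. GABA nuclei had 50.4, 40.8, 52.2 and 40.5 CPM, the Slc26a7 gate 40.1, 39.1, 57.2 and 39.0 CPM, and glutamate nuclei 33.3, 33.9, 34.6 and 31.8 CPM. The ranges of astrocytes and precursors did not overlap, and those of neighbours from precursors down to the Slc26a7 gate did.

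Oligodendrocytes, the most numerous cells, held little Lrrk2, with 2.60, 3.00, 4.76 and 2.48 CPM, or 74 UMIs in 8512 nuclei. Microglia held 2 UMIs in 926 nuclei, both in female 2 (4.93 CPM). The 0 UMIs in the other 3 libraries allow up to 7.75 to 10.9 CPM, taking 3 UMIs as the upper limit of a count of 0. The pooled astrocyte level was 31.7 times that of oligodendrocytes (95% interval 24.9 to 40.9) and 69.4 times that of microglia (19.1 to 574), both intervals exact and covering counting error only. After thinning, Lrrk2 was found in 16.7% ± 0.9 (SD, n = 4) of astrocytes, 13.6% ± 1.7 of precursors, 9.79% ± 1.71 of dopamine nuclei, 0.558% ± 0.102 of oligodendrocytes and 0.251% ± 0.502 of microglia. The last 2 shares were the lowest of the 8 gates at this equal depth.

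The Lrrk2 contrasts given next passed the test over all genes. Astrocytes exceeded dopamine nuclei by 1.09 ± 0.14 on the log2 scale (adjusted p = 1.4e-09), precursors exceeded them by 0.57 ± 0.15 (adjusted p = 0.0013), and astrocytes exceeded precursors by 0.52 ± 0.12 (adjusted p = 0.00019), each in 4 of 4 libraries. These pairs were chosen after the levels had been seen. Over all genes the test called 61.4%, 52.8% and 52.8% in those comparisons. Oligodendrocytes fell below the mean of precursors and astrocytes by a log2 change of -4.61 ± 0.14 (adjusted p = 1.7e-32), a comparison also chosen after the levels, in which 69.1% of genes were called.

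In the average over 4 neuron gates against 4 glial gates, 5 of the 6 members were called, against 71.4% of the 12312 genes tested. Uchl1, Atp13a2 and Lrrk2 were higher in neurons and Pink1 and Vps35 lower. Their median log2 fold change was 0.76 and that of all genes tested -0.01. For Lrrk2 the value of 1.41 ± 0.18 rests on how the near absence in microglia was fitted, and without female 2, which held both microglial UMIs, it was 2.59. It does not describe astrocytes and precursors, which exceeded every neuron gate on average.

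Pink1 (ENSRNOG00000015385) was sparse, and its mean level was highest in oligodendrocytes, with 35.8, 26.7, 44.9 and 35.2 CPM in female 1, female 2, male 1 and male 2. Microglia (33.3, 29.6, 40.1 and 25.8 CPM) and astrocytes (21.9, 22.6, 42.0 and 21.9 CPM) overlapped that range, and oligodendrocytes were above microglia in 3 of 4 libraries. Dopamine nuclei had 15.8, 11.0, 17.1 and 11.1 CPM from 40 UMIs in all, and precursors 17.9, 6.62, 20.4 and 9.83 CPM. Male 1 was the highest library in 8 of 8 gates. The 4 oligodendrocyte values lay above all dopamine and precursor values. Neurons fell below glia by a log2 change of -1.03 ± 0.15 (adjusted p = 3.3e-08). Among glia, oligodendrocytes were higher than the mean of the other 3 gates by 0.84 ± 0.12 (adjusted p = 2.4e-08) and precursors lower, at -1.31 ± 0.19 (adjusted p = 9.9e-08).

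Park7 (ENSRNOG00000018289) spanned a narrower range, from a mean of 53.5 ± 9.5 CPM (SD, n = 4) in astrocytes to 98.1 ± 32.6 in oligodendrocytes, and each neighbouring pair of gates overlapped. Oligodendrocytes had 87.0, 57.8, 132 and 116 CPM and dopamine nuclei 51.8, 66.2, 87.0 and 64.1 CPM in female 1, female 2, male 1 and male 2. The lowest library in a gate was a female in 8 of 8 gates. Oligodendrocytes exceeded the other 3 glial gates by 0.89 ± 0.09 (adjusted p = 1.0e-11). Precursors were lower, at -0.36 ± 0.13 (adjusted p = 0.019). Astrocytes were lower, at -0.38 ± 0.12 (adjusted p = 0.0070), in 3 of 4 libraries, with female 2 at 0.22. Both of the last calls were lost at a depth of at least 2000 UMIs per nucleus, with adjusted p of 0.26 and 0.40, and without male 1 (0.065 and 0.057) or male 2 (0.062 and 0.17). The precursor call was also lost without female 1 (adjusted p = 0.076) and with library totals only (0.14). Neurons and glia differed by 0.10 ± 0.09 (95% interval -0.07 to 0.27), which was not called.

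Vps35 (ENSRNOG00000017612) was present in every gate within a narrow range, from 83.8 ± 5.2 CPM (SD, n = 4) in astrocytes to 154 ± 8 in microglia. Microglia had 152, 145, 164 and 155 CPM in female 1, female 2, male 1 and male 2, and astrocytes 78.4, 82.1, 90.8 and 84.2 CPM. Dopamine nuclei lay between with 112, 137, 125 and 139 CPM, and the 4 neuron gates overlapped. Microglia exceeded the other 3 glial gates by 0.42 ± 0.11 (adjusted p = 0.00061), a call lost at a depth of at least 2000 UMIs (0.36, adjusted p = 0.076), which left out 749 of 926 microglia. Oligodendrocytes exceeded the other 3 by 0.44 ± 0.06 (adjusted p = 7.1e-08). Astrocytes were lower than the other 3, at -0.59 ± 0.08 (adjusted p = 1.7e-08), and precursors lower, at -0.28 ± 0.08 (adjusted p = 0.0046). The precursor call was lost without female 2 or male 2 (adjusted p of 0.061 and 0.11) and with library totals only (0.10). The small difference between neurons and glia (-0.16 ± 0.06, adjusted p = 0.012) turned to 0.08 when only library totals set the scale, and was not called without male 1 or male 2 (adjusted p of 0.054 and 0.056), with DESeq2 (0.064), with no filter on low counts (0.067) or at a depth of at least 2000 UMIs (0.073).

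Counted by glial type against the mean of the other 3, the test called 5 members for oligodendrocytes, 6 for precursors, 3 for astrocytes and 2 for microglia. For precursors the count was 4 at a depth of at least 2000 UMIs, with library totals only, and without male 2. The shares over all genes tested were 62.6%, 53.9%, 58.1% and 55.4%. Among these, the Lrrk2 values rest on the 2 microglial UMIs, and without female 2 the oligodendrocyte value moved from -2.64 to -1.14 and was not called (adjusted p = 0.96). The fitted Lrrk2 value for microglia depends on the prior count of the fit, so the ratios of counts given above describe it better. Uchl1 in precursors was lower than in the other 3 glia, at -0.46 ± 0.12 (adjusted p = 0.0015), a call lost at a depth of at least 2000 UMIs (-0.30, adjusted p = 0.13).

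**Figure D3:**
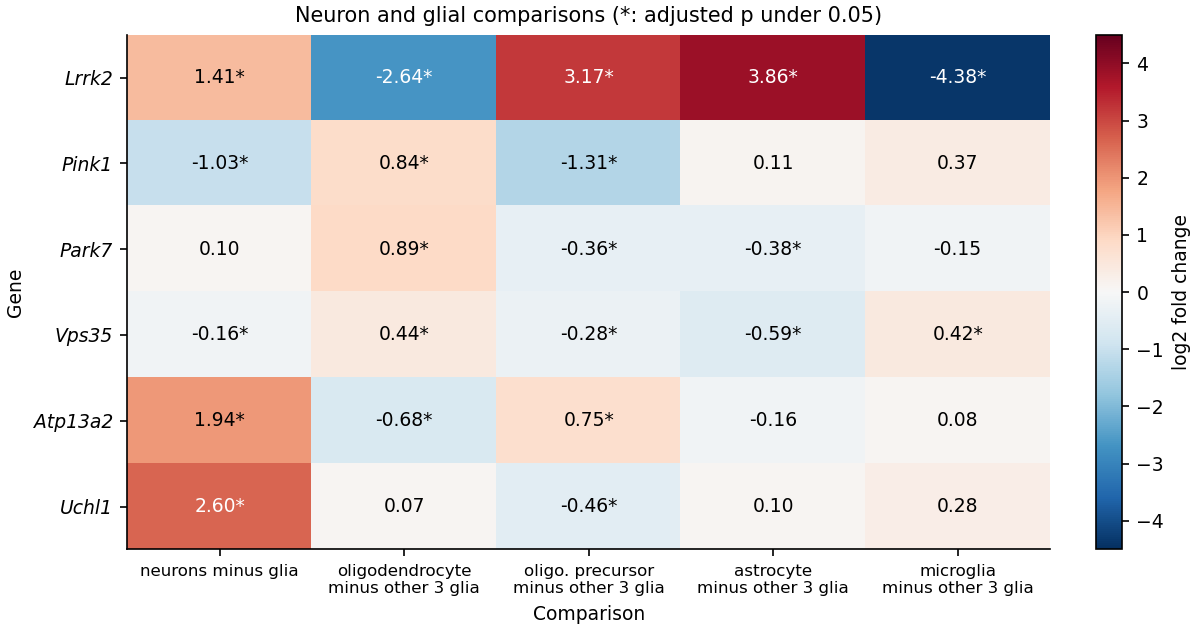
Each cell gives the log2 fold change of a gene (rows) in a comparison (columns), coloured red for higher and blue for lower, and a star marks an adjusted p under 0.05. Lrrk2 has the widest spread among glia, from 3.86 in astrocytes to a fitted -4.38 in microglia that rests on 2 UMIs, while Vps35 stays between -0.59 and 0.44.

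Upstream sequence is shown for 2 members that were higher in neurons, Uchl1 and Atp13a2, and for 2 that were not, Pink1 and Vps35. The windows are the 250 bases before the start of each gene from RefSeq on build GRCr8 (Uchl1 at chr14:41849418-41849667, minus strand; Atp13a2 at chr5:158575561-158575810, plus strand; Pink1 at chr5:155825951-155826200, minus strand; Vps35 at chr19:37938739-37938988, plus strand). Promoter sequence was held for 5 of the 6 genes, Lrrk2 being the other. Sequences run 5′ to 3′ along the gene, and capitals mark matches, on either strand, to the E-box CACGTG, the GC box GGGCGG, the CCAAT box CCAAT, the TATA box TATAAA and the cyclic AMP response element TGACGTCA; no matches overlapped.
Uchl1: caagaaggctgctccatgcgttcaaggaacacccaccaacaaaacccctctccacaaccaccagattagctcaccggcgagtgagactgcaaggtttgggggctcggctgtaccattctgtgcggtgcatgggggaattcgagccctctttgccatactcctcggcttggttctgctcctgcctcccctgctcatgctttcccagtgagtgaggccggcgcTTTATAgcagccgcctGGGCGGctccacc
Atp13a2: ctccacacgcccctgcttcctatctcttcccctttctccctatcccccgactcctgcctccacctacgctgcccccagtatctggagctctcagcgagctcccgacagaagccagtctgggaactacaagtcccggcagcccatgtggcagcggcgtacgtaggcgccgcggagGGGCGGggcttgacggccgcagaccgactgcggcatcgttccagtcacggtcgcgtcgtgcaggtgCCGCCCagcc
Pink1: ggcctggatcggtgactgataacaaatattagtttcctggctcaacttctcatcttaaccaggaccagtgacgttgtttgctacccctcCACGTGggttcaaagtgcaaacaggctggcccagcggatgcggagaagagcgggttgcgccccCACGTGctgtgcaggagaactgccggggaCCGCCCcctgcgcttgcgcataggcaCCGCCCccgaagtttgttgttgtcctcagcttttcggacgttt
Vps35: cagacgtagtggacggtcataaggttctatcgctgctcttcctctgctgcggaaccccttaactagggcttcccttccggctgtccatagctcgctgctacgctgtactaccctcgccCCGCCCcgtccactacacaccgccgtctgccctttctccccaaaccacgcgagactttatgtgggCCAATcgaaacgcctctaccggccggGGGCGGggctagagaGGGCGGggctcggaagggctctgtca
Uchl1 held 1 TATA box match, which lay on the strand opposite to the gene. Of 33469 rat promoter windows of that length, 12.9% hold a TATA box match on either strand. Uchl1 also held 1 GC box match, which 30.5% hold. Atp13a2 held 2 GC box matches. Pink1 held 2 GC box and 2 E-box matches, the E-box being in 5.59% of windows, and Vps35 held 3 GC box matches and 1 CCAAT box match, the latter in 34.0% of windows. No window shown held TGACGTCA, which 1.59% of windows hold. These are matches of letters in a genome build other than that of the counts, and nothing was measured at them.

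Dopamine nuclei were next compared with the other neurons. Against the mean of the GABA and glutamate gates, 1 of the 6 members was called, where 28.3% of all genes were. Lrrk2 was higher in dopamine nuclei by 0.54 ± 0.14 on the log2 scale, 1.46-fold (95% interval 0.27 to 0.81, adjusted p = 0.0020, higher in 4 of 4 libraries). The largest excess was in female 1 (0.81), and the others lay between 0.31 and 0.49. Without female 1 the value was 0.43 and no longer called (adjusted p = 0.060).

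The other members gave values on both sides of 0. Uchl1 was at 0.14 ± 0.07 (adjusted p = 0.14), Vps35 at 0.12 ± 0.09 (adjusted p = 0.33), Atp13a2 at -0.18 ± 0.09 (adjusted p = 0.13), Park7 at -0.32 ± 0.13 (adjusted p = 0.059) and Pink1 at -0.37 ± 0.23 (adjusted p = 0.25). Their median with Lrrk2 was -0.03, and that of all genes tested was also -0.03. The 95% intervals, a normal approximation, ended at 0.29 for Vps35 and 0.28 for Uchl1 but for Pink1 reached -0.81. That for Uchl1 began at 0.001 although its unadjusted edgeR p was 0.054, so the intervals are somewhat narrow. Without female 2, Park7 was at -0.43 (adjusted p = 0.015), and without male 1 at -0.42 (adjusted p = 0.038).

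Split by partner, a choice made after the levels were seen, Lrrk2 in dopamine nuclei exceeded glutamate nuclei by 0.77 ± 0.15 (adjusted p = 7.4e-05; 23.9% of genes called) but was at 0.32 ± 0.15 against GABA nuclei (adjusted p = 0.11; 28.9% called). GABA nuclei in turn exceeded glutamate nuclei in Lrrk2 by 0.45 ± 0.12 (adjusted p = 0.0048), the member called in that comparison, where 12.5% of genes were called. Without female 1 this value was 0.40 and not called (adjusted p = 0.062). Park7 was lower in dopamine than in GABA nuclei, at -0.37 ± 0.14 (adjusted p = 0.039), in 3 of 4 libraries, with female 2 at 0.07. The call was lost without female 1 (-0.31, adjusted p = 0.19) or male 2 (-0.28, adjusted p = 0.28). It was also lost with DESeq2 (adjusted p = 0.089), with its size factors in edgeR (0.065), with 2 UMIs in the glial gates (0.054) and at a depth of at least 2000 UMIs (0.065).

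**Figure D4:**
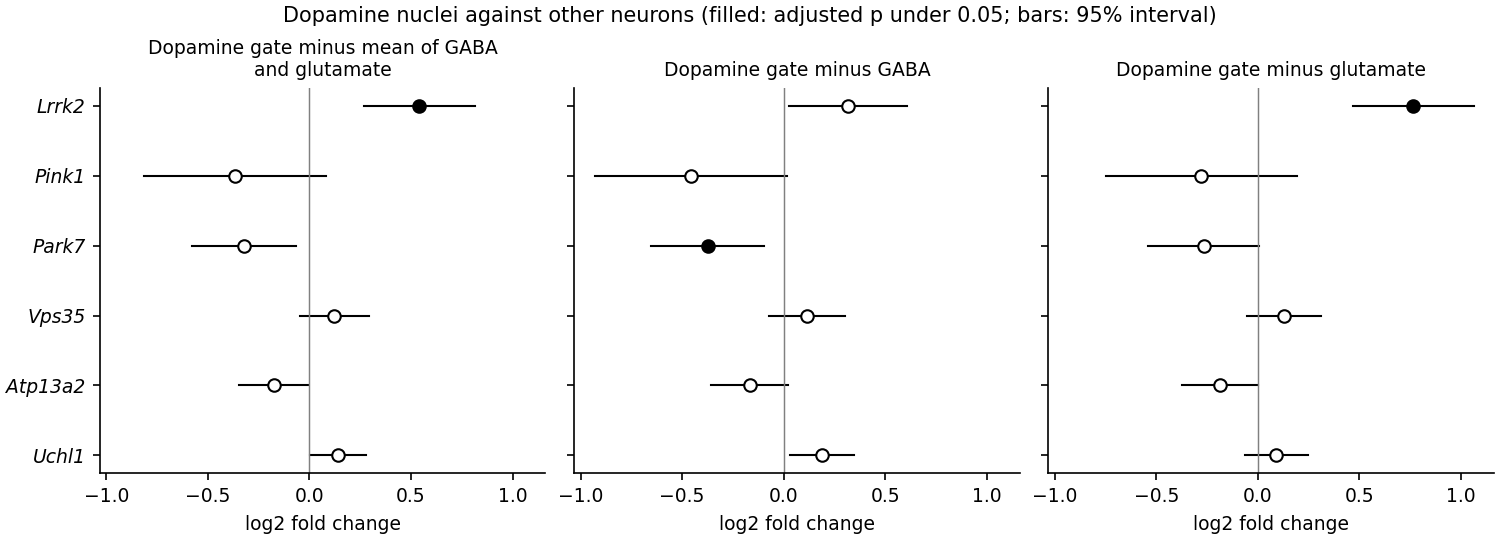
Points give the log2 fold change of the dopamine gate over the other neuron gates for each gene and bars the 95% interval; filled points passed an adjusted p under 0.05. Lrrk2 lies to the right in each panel, at 0.54, 0.32 and 0.77, and the middle value was not called.

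The gate of Slc26a7 with Gad2 differed from the dopamine gate in 0 members (15.0% of genes called) and from the mean of GABA and glutamate in 0 members (8.63%), by edgeR and by DESeq2. At an unadjusted p under 0.05 there were 0 members in the former and 1 in the latter, Pink1, at -0.96 ± 0.47 (edgeR adjusted p = 0.26) from 7 UMIs in the gate. Its 82 nuclei set the precision: the interval for Lrrk2 against the dopamine gate ran from -0.06 to 1.02 with dopamine higher, and that for Uchl1 from -0.21 to 0.22.

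Among dopamine nuclei, 123 held a UMI of Aldh1a1, a retinaldehyde dehydrogenase of a dopamine subtype, and 166 held none. Of the members tested, 0 of 5 were called between them, where 5.26% of 6614 genes were; Pink1 fell below the filter on low counts. Park7 was at 0.49 ± 0.24 (adjusted p = 0.37), and it was the 1 member with an unadjusted p under 0.05. Lrrk2 was at -0.31 ± 0.28 (adjusted p = 0.74). In male 2 the nuclei with Aldh1a1 had 20.1 CPM of Lrrk2 from 6 UMIs and those without had 69.1 CPM from 29. In female 1 they had 78.6 and 65.0 CPM. Nuclei with a UMI of Slc17a6, the vesicular glutamate transporter, numbered 47 against 242 without, and 0 of 5 members were called there too (1.82% of genes), with 0 at an unadjusted p under 0.05. DESeq2 called 0 members in either split.

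Female and male libraries were compared with 2 of each. Over all kept nuclei 0 of 6 members were called, as 0.0312% of 16037 genes were, and in the dopamine gate 0 of 6, as 0.0681% of 8817 were; DESeq2 also called 0 members in both. At an unadjusted p under 0.05 there were 1 and 0 members. Over all kept nuclei, the female libraries had 75.5 and 56.0 CPM of Park7, and the male libraries 101 and 92.7 CPM. The female values lay below the male ones, and the difference of -0.52 ± 0.15 had an unadjusted p of 0.012 and an adjusted p of 0.90. Both females were below both males in 6 of 8 gates for Park7, and in 0 to 3 gates for each other member. The gates come from the same 4 libraries, and the share of all genes with this order was not computed. With 2 libraries against 2, the smallest p that an exact 2-sided test can give is 0.333. Uchl1 had 238 and 156 CPM in the females and 327 and 225 CPM in the males (-0.45 ± 0.23, adjusted p = 0.90), and the groups overlapped. Female 2 was the lowest library for Uchl1 in 8 of 8 gates, and male 1, which had the highest share of nuclei in neuron gates, the highest in 7; whether the neuron share accounts for the values over all nuclei was not tested. Within the dopamine gate Park7 was at -0.36 ± 0.25 and Uchl1 at -0.25 ± 0.15.

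Genes that act with the members were counted from 7 lists, in dopamine nuclei against the mean of GABA and glutamate, where 28.3% of all genes were called with a median of -0.03. Of 18 tested genes of retromer and its partners, 2 were higher and 1 lower (median 0.05). Vps26a, a retromer subunit that binds VPS35, was higher by 0.54 ± 0.17 (adjusted p = 0.012), and Washc4 of the actin-nucleating WASH complex by 0.32 ± 0.12 (adjusted p = 0.033). Sort1, the sorting receptor sortilin, was lower at -0.42 ± 0.10 (adjusted p = 0.0013). Of 19 LRRK2 substrates and regulators, 2 were higher and 3 lower (median -0.16). The 3 were Rab3a and Rab3c, Rabs of synaptic vesicles, at -0.98 ± 0.11 (adjusted p = 1.6e-10) and -0.78 ± 0.15 (adjusted p = 2.3e-05), and Rilpl1, which binds phosphorylated Rabs, at -0.54 ± 0.19 (adjusted p = 0.028).

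Of 26 mitophagy genes, 3 were higher and 3 lower (median 0.0026). Fbxo7, an adaptor of a ubiquitin ligase that is itself a parkinsonism gene, was higher by 0.60 ± 0.15 (adjusted p = 0.0014) and Bnip3l, a mitophagy receptor, by 0.30 ± 0.08 (adjusted p = 0.0042). Its relative Bnip3 was lower at -0.46 ± 0.15 (adjusted p = 0.019). Of 27 genes on a list of lysosome genes and P5B ATPases, the relatives of Atp13a2, 4 were higher and 5 lower (median -0.01). Npc2, which moves cholesterol out of lysosomes, was higher by 0.94 ± 0.15 (adjusted p = 2.0e-06) and Lamp2, a lysosomal membrane protein, by 0.62 ± 0.14 (adjusted p = 0.00063). Cathepsin B (Ctsb) was lower at -1.50 ± 0.14 (adjusted p = 6.9e-13) and prosaposin (Psap) at -1.27 ± 0.09 (adjusted p = 2.0e-16).

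Of 14 genes for ubiquitin and its hydrolases, 0 were higher and 5 lower (median -0.12). They included the ubiquitin gene Ubb at -0.56 ± 0.08 (adjusted p = 1.8e-07), while Uchl1 was not among the called genes. Uchl3, the close relative of Uchl1, was lower at -0.64 ± 0.24 (adjusted p = 0.035); its symbol stands for 2 features in the tables. Of 26 genes of oxidative stress defence, 4 were higher and 8 lower (median -0.05). Gsr, glutathione reductase, was higher by 0.70 ± 0.11 (adjusted p = 1.8e-06), and Prdx5, a mitochondrial peroxiredoxin, was lower at -0.81 ± 0.14 (adjusted p = 4.7e-06), as was Sod2, the mitochondrial superoxide dismutase (-0.51 ± 0.18, adjusted p = 0.025). Of 17 other inherited parkinsonism genes, 2 were higher and 2 lower (median 0.06). Dnajc6, auxilin, which uncoats clathrin vesicles, was higher by 0.49 ± 0.07 (adjusted p = 9.4e-08), and Synj1, which acts at the same step, by 0.22 ± 0.08 (adjusted p = 0.024).

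**Figure D5:**
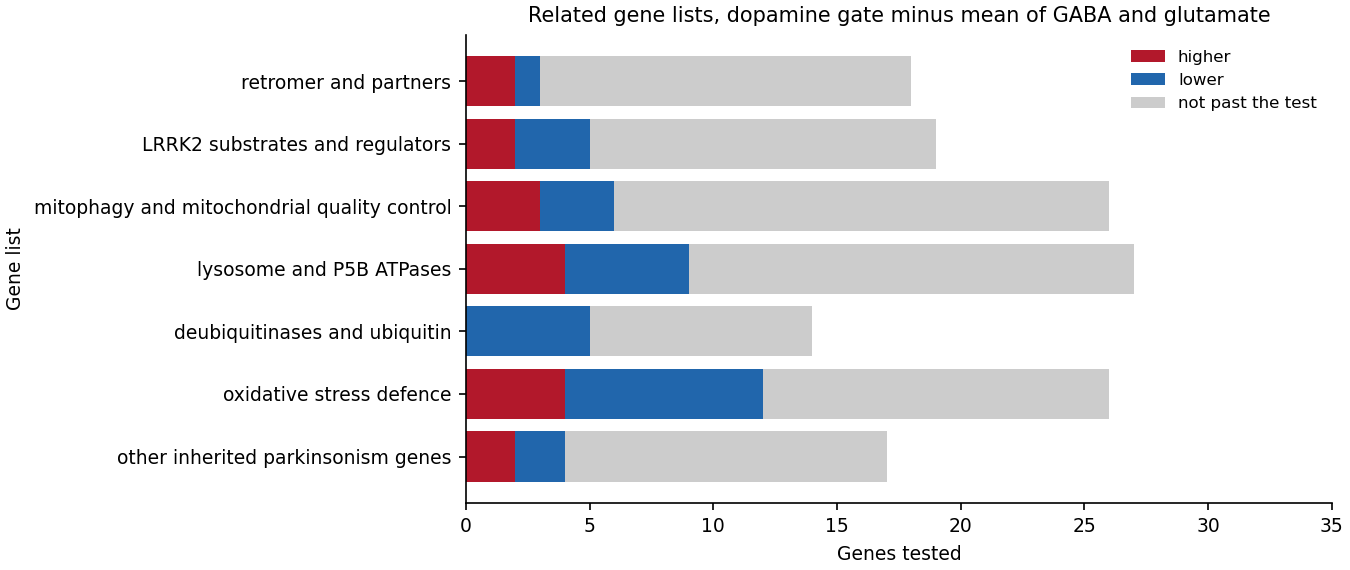
Bars count the tested genes of 7 related lists by outcome in dopamine nuclei against the mean of GABA and glutamate nuclei (red, higher; blue, lower; grey, not past the test). Each list except that of ubiquitin and its hydrolases, with 5 lower, has called genes in both directions.

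Between neurons and glia 71.4% of genes were called. The list of lysosome genes and P5B ATPases stood mostly on the glial side, with 3 of 27 genes higher in neurons and 18 lower (median -0.92, all genes -0.01). Atp13a2 is a lysosomal gene outside that list, and its direction was the opposite. The largest of the 18 were Lamp2 (-2.97 ± 0.07, adjusted p = 3.6e-37), Ctsl (-2.61 ± 0.08, adjusted p = 2.4e-31) and Npc2 (-2.23 ± 0.08, adjusted p = 1.1e-28), which had 1402, 1436 and 1658 CPM in microglia. The 3 higher ones were the proton pump genes Atp6v0a1 and Atp6ap2 and the channel gene Tmem175. Of the LRRK2 list, 4 were higher in neurons and 10 lower. Lrrk1, the paralog of Lrrk2, had 332 CPM in microglia and at most 8.39 CPM in any other gate. Of the retromer list, 2 were higher and 8 lower, of mitophagy genes 11 and 9, of ubiquitin genes 7 and 5, of oxidative stress genes 11 and 7, and of other parkinsonism genes 9 and 6.

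The members differed in the genes whose pattern over the 32 library and gate sums was most like theirs, out of 8112 compared. Sums of a library share its depth, and these correlations are descriptions. Uchl1 was most like Fgf9 (r = 0.97), Ndn (0.97) and Pgr (0.97), and for Atp13a2, Tmem130 (0.97) and Tmem59l (0.97) were among the 3 most alike. For Lrrk2, Rev3l (0.97) and Lnx1 (0.96) were among the 3 most alike. Vps35 was most like Slc38a2 (0.91), Rybp (0.88) and Tmem87b (0.88), and Park7 most like Snrpd2 (0.85), Mrfap1 (0.83) and Hsp90ab1 (0.82). For Pink1, Mospd2 (0.84) and Mt-cyb (0.84) were among the 3 most alike. Among the members themselves, Uchl1 and Atp13a2 had r = 0.90 and Lrrk2 and Vps35 r = -0.81.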

How the data were processed

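Single-nucleus RNA was measured in 4 libraries, 2 female and 2 male. The authors deposited unscaled counts of UMIs for every gene in every barcode, and the file headers name software version 3.0.2. Cell Ranger and the build rn6 stand in the submitters' processing notes; the annotation, and whether strand or introns entered the counting, were not stated. The lowest barcode total was 501 UMIs, and no removal of free RNA is described.

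Barcodes needed 200 genes and at most 5% of UMIs from 13 mitochondrial genes, which removed 6; next came out the highest Scrublet scores (scanpy 1.11.5) at 0.8% per 1000 barcodes (980; the caller's own threshold marked 477). Nuclei passing the glutamate gate and the dopamine or Slc26a7 gate were kept in the latter. UMIs were summed per library and gate (at least 10 nuclei) and tested with edgeR 4.0.16 in R 4.3.3 (quasi-likelihood, TMM, its filter on low counts) with library as a block, or without covariates for sex. Adjusted p is Benjamini-Hochberg over all genes tested, called under 0.05. SE is the absolute log2 fold change divided by the root of the F statistic. The 95% intervals of log2 fold changes are the value plus or minus 1.96 SE, which can be narrower than the F test implies. Signed values are the first-named gate minus the second. Scripts were tested on simulated counts. Replicates are pools of 3 animals; whether pools were prepared separately in time is not stated.

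Alternatives were DESeq2 1.42.0, its size factors, library totals, keeping low-count genes, leaving out each library, the replicate number as a block for sex, keeping doublets, 500 genes with 1% mitochondrial UMIs as the limits, overlapping gates, other gate minimums, at least 2000 UMIs, only the gates compared, and thinning to 1000 UMIs or none. The members and lists were chosen with earlier results of these data known. Named list genes are up to 3 higher and 3 lower called genes by size, averaging 20 CPM or more and moving alike in 4 libraries; of those, some are given here. Of 154 list genes, 5 were not found by symbol. Some genes that this rule or the likeness to a member would name are not reported here.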

Additional observations from a re-analysis of the deposited data

Results flagged for a closer look

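Dixon's test was applied to the 4 libraries of each of 48 pairs of a member and a gate, and 4 libraries stood apart; chance gives about 1 in 20 such groups. Lrrk2 had 57.2 CPM in the Slc26a7 gate of male 1, from the smallest sum of all (10 nuclei), and 4.93 CPM in the microglia of female 2, from 2 UMIs. The other libraries held 0 UMIs of Lrrk2 in microglia, so any UMI in female 2 would have been flagged. The rate of 1 in 20 does not apply to that group. Pink1 had 42.0 CPM in the astrocytes of male 1, and Atp13a2 59.4 CPM in the microglia of male 2.

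In 6 of 64 pairs of a member and a comparison, both female libraries moved one way and both male libraries the other. These differences were not tested, and the share of all genes that split so was not computed. With 4 libraries such a split of signs also arises by chance, so the count alone does not show a difference between the sexes. The values that follow are log2 differences in female 1, female 2, male 1 and male 2. Between GABA and glutamate nuclei, Park7 was at -0.0404, -0.0446, 0.290 and 0.170. Vps35 was at 0.107, 0.0914, -0.0642 and -0.0792 in the same comparison. Atp13a2 was there at -0.0896, -0.202, 0.0382 and 0.165. Between the Slc26a7 gate and the mean of GABA and glutamate, Vps35 was at -0.297, -0.0492, 0.0307 and 0.0986. Between dopamine nuclei with and without Aldh1a1, Lrrk2 was at 0.257, 0.139, -0.307 and -1.57. Between dopamine nuclei with and without Slc17a6, Vps35 was at -0.505, -0.543, 0.406 and 0.301.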

How the results depend on the processing

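Alternatives were followed for called members in the planned comparisons and for every member between dopamine nuclei and the mean of GABA and glutamate. Lrrk2 was followed in the comparisons chosen after the levels, and Park7 between dopamine and GABA nuclei. Park7 and Uchl1 were followed by sex over all nuclei. Of these 547 values, 512 kept direction and side of the threshold, 27 lost a call and 7 gained one. The 1 that turned was Vps35 between neurons and glia, 0.0804 with library totals only (adjusted p = 0.21). Between dopamine nuclei and the mean of GABA and glutamate, the count of members called was 2 in place of 1 with DESeq2, library totals only, no filter on low counts, nuclei counted in each gate they pass, and only the gates compared, and 0 to 2 with a library left out (0 without female 1). The added member was Park7 (-0.43 to -0.23 over all alternatives) or Uchl1 (0.08 to 0.17). Between GABA and glutamate nuclei it was 0 to 1 with a library left out (0 without female 1), and for microglia 1 in place of 2 with at least 2000 UMIs. Among 614 values for other members not called, some of them given a value above, 63 changed sign, 0 of them past the threshold, and 8 gained a call.

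In the sex comparison the replicate block gave -0.54 for Park7 and -0.46 for Uchl1 (adjusted p = 0.31 for both) and 0 members called. Equal numbers deviated together with r = 0.29 over 16037 genes, from 2 pairs, so nothing in the labels or this value makes them pairs. Library totals moved the median of all genes between neurons and glia from -0.01 to 0.23 and the share of calls that were higher from 51.6% to 65.2%. For oligodendrocytes that share moved from 56.2% to 44.9% (42.2% with DESeq2), and for the Slc26a7 gate against GABA and glutamate from 32.8% to 43.2% with DESeq2 size factors and 52.6% with DESeq2. With library totals it moved from 61.6% to 50.2% for the dopamine against the Slc26a7 gate and from 51.2% to 39.1% for astrocytes against dopamine nuclei, and with DESeq2 from 51.6% to 41.4% for oligodendrocytes against precursors and astrocytes. DESeq2 called 126 genes in place of 348 in the Aldh1a1 split, 42 in place of 116 in the Slc17a6 split and 19 in place of 5 for sex over all nuclei. Where a call was lost the cause was not tested. Requiring 2 UMIs of Slc17a6 within dopamine nuclei left too few nuclei and was not run, and a depth of 2000 UMIs removed no dopamine nuclei. Counts limit Pink1 in the dopamine gate (40 UMIs) and the Slc26a7 gate (7 UMIs), and Lrrk2 in microglia (2 UMIs). Pink1 was also sparse in microglia (44 UMIs) and precursors (55 UMIs).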
